A study of Caenorhabditis elegans with 9 samples.

Results

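Adult worms that received no bacteria (DR0) were compared with worms that received diluted bacteria (DR1), across all genes, to describe what separates the absence of food from scarce food. The comparison holds 6 libraries, 3 of DR0 and 3 of DR1, out of 9 in the series. The other 3 libraries are worms fed undiluted bacteria ad libitum (AL), and they serve here only as a level to read the others against. All worms were *Caenorhabditis elegans* of the strain N2, wild type in genotype, and RNA enriched for poly(A) was sequenced from whole worms. Every group was hatched from eggs obtained by bleaching and was raised on *E. coli* HT115 until adult day 1. The worms then spent 24 h on NGM plates that held 10 µg/ml kanamycin, an antibiotic that stops bacteria from growing, before they were harvested. The plates of DR0 worms held no bacteria, those of DR1 worms held HT115 in dilution and those of AL worms held undiluted HT115. The sample characteristics of the DR0 libraries also carry the words dietary restriction 1, whereas their titles name DR0 alone, and the titles were followed.

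Food intake sets gene expression in the worm through several known routes. When bacteria are absent, the intestine, which is at the same time gut, liver and fat depot, mobilises stored lipid through lysosomal lipases and fatty acid oxidation, and the germ line slows the making of oocytes. Lysosomal proteases of the cathepsin families break down engulfed and internal protein, while cytochrome P450 enzymes, UDP-glucuronosyltransferases and ABC transporters modify and export foreign compounds. The ribosome is a large investment of a growing cell, so genes for its proteins are a common readout of feeding.

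Total counts in the 6 libraries ranged from 9203611 to 11348326, and 14332 genes had enough counts to be tested. Expression is given as CPM, the count for each 1e+06 of the library size after scaling by the trimmed mean of M values (TMM), and CPM is not corrected for gene length. Upregulated and downregulated here mean a log2 fold change, DR0 minus DR1, above 1 or below −1 together with a Benjamini–Hochberg adjusted p below 0.05 in edgeR's quasi-likelihood test. The standard error (s.e.) of a log2 fold change is derived from the test statistic. Whether replicate libraries stem from separate cultures is not stated in the sources, and p values therefore measure a spread that may be technical. DR0 libraries differed from DR1 libraries by a root mean square of 0.54 to 0.58 on the log2 scale, against 0.43 to 0.45 between DR0 libraries and 0.36 to 0.40 between DR1 libraries, while AL libraries differed from either by 0.995 to 1.02. TMM factors were 0.944 to 0.949 in DR0, 1.16 in DR1 and 0.909 to 0.914 in AL, and the 100 genes with most counts held 32.4% to 32.6% of counts in DR0 and 26.8% to 27.7% in DR1. Scaled by total counts alone, the median log2 fold change of all genes was −0.29, against 0.01 with TMM. Markers of oocytes, germ cells, muscle, neurons, intestine, epidermis and pharynx were all detected in these whole-worm libraries, and the 15 major sperm protein genes tested summed to at most 11.2 CPM in any DR0 library and 13.1 CPM in any DR1 library.

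Absence of food and scarce food gave transcriptomes that differed at many genes by small amounts and at few genes by large ones. A total of 206 genes were upregulated (1.44% of those tested) and 147 were downregulated (1.03%) in DR0 against DR1. DR0 and DR1 libraries did not overlap for 202 of the 206 and 142 of the 147, so non-overlap of a called gene adds little to its call. Of all genes tested, 25.3% had every DR0 library above every DR1 library and 23.2% had every DR0 library below. With the adjusted p alone, 3035 genes were higher (21.2%) and 2557 lower (17.8%), of which 3134 differed by less than 0.5 on the log2 scale. Scaled by total counts, the calls were 57 up and 604 down, in place of 206 and 147. Of the upregulated genes named here with their values, those then short of the fold threshold, at log2 fold changes from 0.72 (*rla-0*) to 0.999 (*perm-2*), were these and *eef-1B.1*, *ctl-1*, *fat-5*, *puf-6*, *his-68*, *his-13*, *gyg-2*, *dod-6*, *lys-4*, *F13D12.6*, *gst-27*, *gsto-3*, *alh-8*, *nos-2*, *aldo-2*, *cpr-1*, *ech-7*, *unc-54*, *flp-3*, *mlc-2*, *mlc-3*, *ttr-16* and *hphd-1*. The median log2 fold change of the upregulated genes was 1.17 and that of the downregulated genes −1.25, and the plot of fold change against level shows no called gene beyond 2.36 up or 2.38 down. With a mean of at least 10 CPM in DR0 or in DR1 were 130 of the 206 upregulated genes and 33 of the 147 downregulated genes. Among the downregulated genes 16 were annotated as pseudogenes, which is 10.9% of them and 3.26% of all genes tested.

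**Figure D1:**
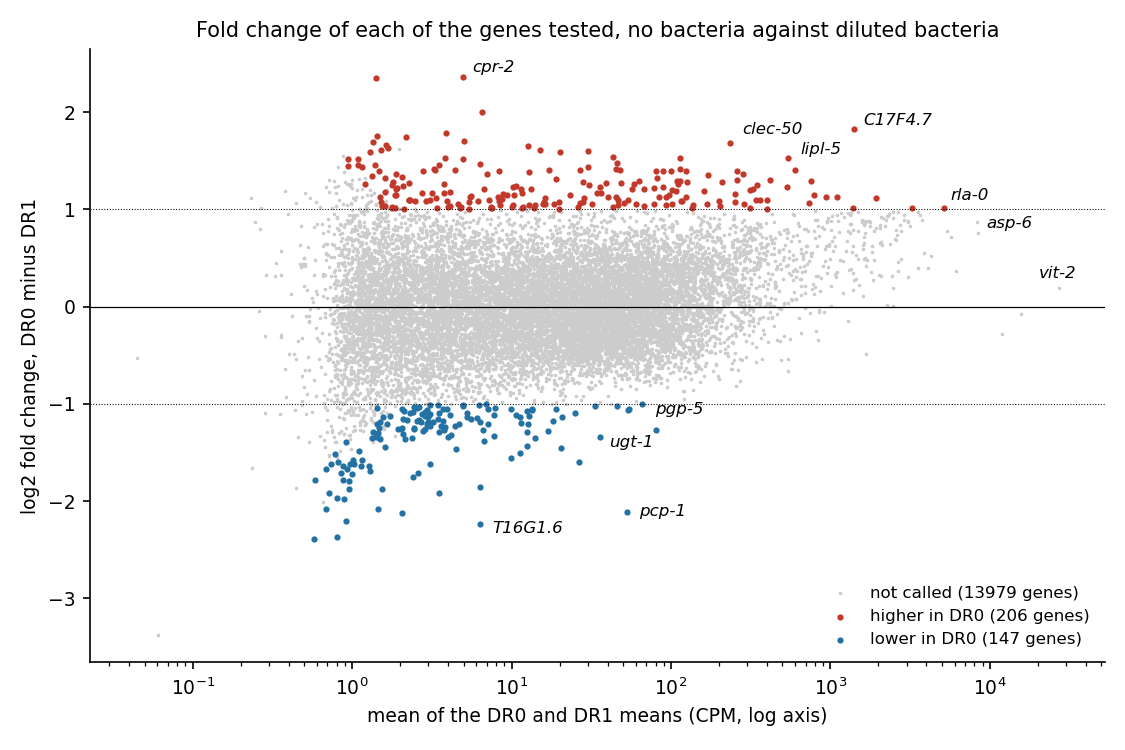
Log2 fold change, DR0 minus DR1, of each of 14332 genes against the mean of its DR0 and DR1 levels (CPM, log axis). The 206 upregulated genes are red and the 147 downregulated genes blue, dotted lines mark log2 fold changes of 1 and −1, and the genes at the right of the plot that rose include *rla-0* and *C17F4.7*, while the downregulated genes lie mostly at low levels.

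Among genes at 10 CPM or more, the 12 largest rises in DR0 included a lysozyme gene, a lysosomal lipase gene and C-type lectin genes. Libraries that did not overlap between DR0 and DR1 were a condition for naming these genes, so that they do not overlap is no result. *C17F4.7* (chromosome II from 3245087 to 3246015 of WBcel235) had 2228, 2186 and 2183 CPM in DR0 libraries, against 632, 600 and 636 CPM in DR1 libraries, and *W03D8.8* (chromosome I from 2791687 to 2794976) had 12.2, 9.95 and 9.43 CPM in DR0, against 2.19, 1.82 and 3.73 CPM in DR1. These are rises of 1.82 (s.e. 0.03, adjusted p = 2.14e-22 from edgeR) and 2.00 (s.e. 0.27, adjusted p = 1.64e-06) on the log2 scale, and the AL means of 2566 and 1.03 CPM lay above both conditions for *C17F4.7* and below both for *W03D8.8*. The lysozyme gene *ilys-2* (chromosome IV from 2467678 to 2468879), of the invertebrate lysozymes that cut bacterial cell walls, had 19.4, 22.2 and 15.8 CPM in DR0, against 6.48, 6.47 and 5.34 CPM in DR1. Its log2 fold change was 1.65 (s.e. 0.20, adjusted p = 3.96e-07 from edgeR), and its AL libraries had at most 0.556 CPM. The lysosomal lipase gene *lipl-5* (chromosome V from 385746 to 387740), known to be induced by fasting, had 823, 778 and 794 CPM in DR0, against 270, 273 and 290 CPM in DR1. All 3 DR0 libraries also exceeded the AL libraries of 530, 516 and 500 CPM, and the rise over DR1 was 1.52 on the log2 scale (s.e. 0.04, edgeR adjusted p = 1.28e-18).

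*clec-48*, *clec-49* and *clec-50*, which code for proteins with sugar-binding C-type lectin domains, rose by 1.60, 1.61 and 1.68 on the log2 scale. *nspc-1* and *nspc-7*, members of a family of near-identical short genes on chromosome X, rose by 1.53 and 1.48, and reads of this family may be divided between its copies. *F46A8.13*, annotated as a noncoding RNA, averaged 30.2 ± 3.12 CPM in DR0 and 10.0 ± 0.90 CPM in DR1 (SD, n = 3 each), with an AL mean of 0.798 CPM. The last of these genes, *mesp-1* and *Y52B11A.8*, rose by 1.52 and 1.44, and *Y52B11A.8* shares exon sequence with *dxbp-1* on the opposite strand, which counting without strand cannot separate.

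**Figure D2:**
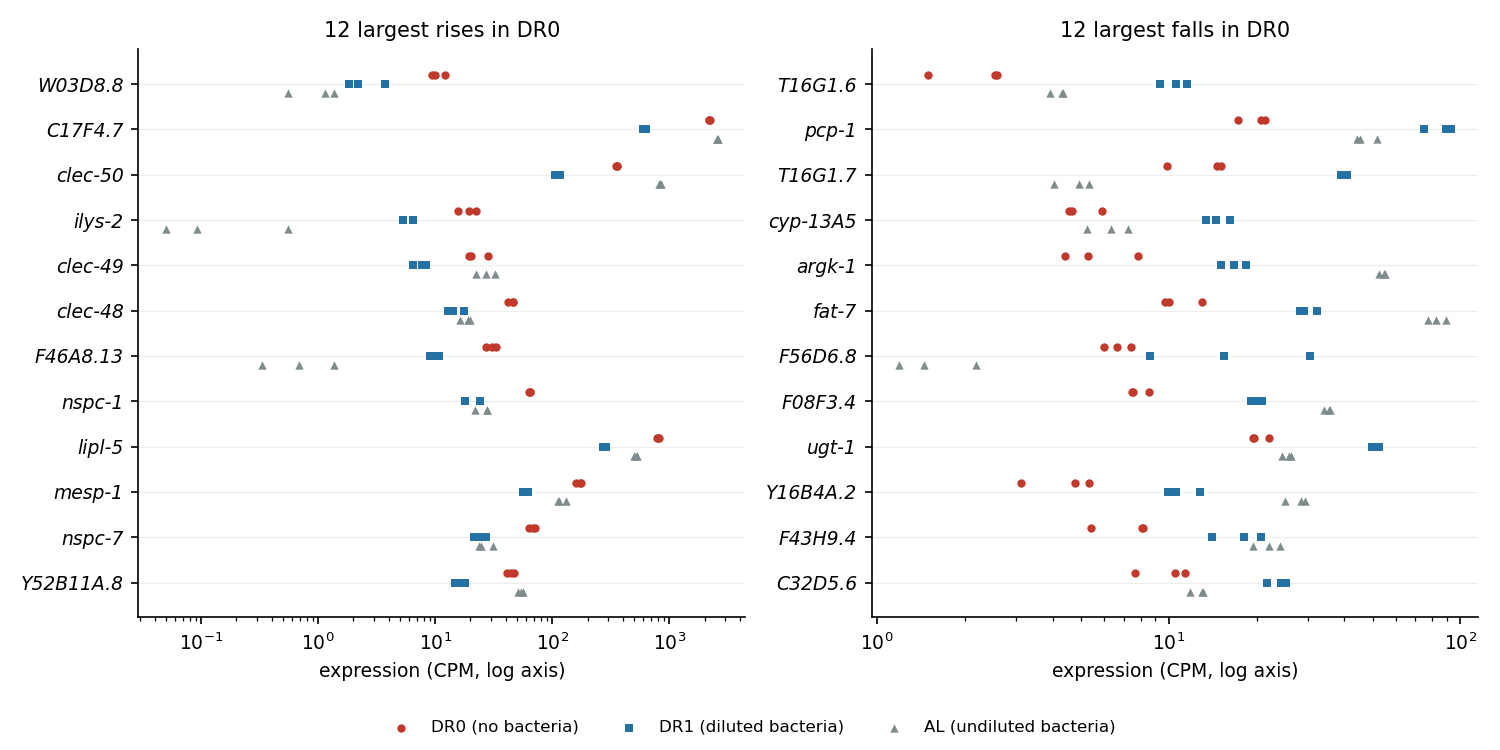
Expression (CPM, log axis) of the 12 genes with the largest rises and the 12 with the largest falls in DR0 among called genes at 10 CPM or more whose libraries do not overlap between conditions. Each point is a library, DR0 as red circles above DR1 as blue squares above AL as grey triangles, and an AL library at 0 CPM is drawn at 0.05. AL lies far below both restricted groups for *ilys-2* and *F46A8.13*, above both for *clec-50*, *fat-7* and *argk-1*, and between them for *pcp-1* and *T16G1.6*.

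Among genes at 10 CPM or more, the 12 largest falls included a peptidase gene, a pair of kinase-like genes, the desaturase gene *fat-7* and the arginine kinase gene *argk-1*. *T16G1.6* (chromosome V from 12935538 to 12937174), a gene of a kinase-like family, had 1.50, 2.54 and 2.58 CPM in DR0, against 10.6, 9.30 and 11.5 CPM in DR1, a log2 fold change of −2.23 (s.e. 0.23, adjusted p = 2.25e-08 from edgeR). Its neighbour *T16G1.7* had 15.1, 9.84 and 14.7 CPM in DR0, against 40.3, 38.9 and 40.7 CPM in DR1 (log2 fold change −1.60). The next genes in the same cluster, *T16G1.5* and *T16G1.4*, chosen after their values were seen, were also lower at the adjusted p, by 0.60 and 0.67 on the log2 scale, without reaching the fold threshold. The prolyl carboxypeptidase-like gene *pcp-1* had 17.3, 20.8 and 21.4 CPM in DR0, against 92.7, 75.2 and 89 CPM in DR1 and an AL mean of 47 CPM between them. *argk-1*, an arginine kinase that stores high-energy phosphate, had 5.30, 4.42 and 7.84 CPM in DR0, against 15.1, 16.7 and 18.4 CPM in DR1 (log2 fold change −1.50, s.e. 0.16, adjusted p = 2.85e-08 from edgeR). The AL mean of *argk-1* was 54.1 CPM, above every DR0 and DR1 library. It was the only one lower of the 5 arginine kinase genes tested, and the other 4 were higher at the adjusted p (2 of them under total-count scaling). The most abundant of them, *F46H5.3*, had 1747, 1713 and 1732 CPM in DR0, against 911, 879 and 921 CPM in DR1.

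The other genes among the 12 largest falls were *cyp-13A5*, *fat-7*, *F56D6.8*, *F08F3.4*, *ugt-1*, *Y16B4A.2*, *F43H9.4* and *C32D5.6*, with log2 fold changes from −1.55 to −1.28. *F56D6.8* turned on a single library, with 6, 7.41 and 6.65 CPM in DR0, against 15.5, 30.5 and 8.61 CPM in DR1. Without DR1 replicate 2 its log2 fold change was −0.84 and it was no longer called.

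Genes for cytosolic ribosomal proteins were higher in DR0 as a group. Of 78 tested, 72 were higher and 0 lower at the adjusted p (background 21.2% and 17.8%), with a median log2 fold change of 0.82 against 0.01 over all genes tested. The 3 DR0 libraries stood above the 3 DR1 libraries for 69 of the 78, where 25.3% of all genes did so. Together these genes took 16%, 16% and 16.1% of the counts in DR0 libraries, against 11.1%, 11.6% and 10.9% in DR1 libraries and 13.6% to 13.9% in AL libraries. The groups did not overlap, and the AL mean lay between DR0 and DR1 for 62 of the 78 genes (19.8% of all genes tested). The single member that passed the fold threshold was *rla-0* (chromosome I from 10567894 to 10569017), which encodes the P0 protein of the ribosomal stalk, with 6850, 7034 and 6827 CPM in DR0, against 3416, 3292 and 3553 CPM in DR1. Its log2 fold change of 1.01 (s.e. 0.03, adjusted p = 5.63e-19 from edgeR) became 0.98 without DR1 replicate 2. The median of the list was 0.53 under total-count scaling, with 68 members higher, and 0.57 once a trend with transcript length, described below, was removed, with 64 higher and 1 lower.

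Other parts of the protein-making machinery did not move together. Of 71 mitochondrial ribosomal protein genes 30 were higher and 9 lower (median 0.14), but 5 and 29 under total-count scaling (median −0.16) and 11 and 15 with the length trend removed (median −0.05). Of 30 translation factor genes, 22 were higher and 5 lower at the adjusted p (median 0.43), but 16 and 7 under total-count scaling (median 0.14). The elongation factor genes *eef-1A.1*, whose product brings tRNA to the ribosome, and *eef-1B.1*, a subunit of its exchange factor, rose by 0.75 and 1.02. *eef-1B.1* had 1923, 1848 and 1820 CPM in DR0, against 926, 926 and 910 CPM in DR1, so the groups were far apart, but without DR0 replicate 1 its value fell just short of the fold threshold at 0.996. Of 31 genes for ribosome biogenesis, the nucleolar work that assembles ribosomes, 3 were higher and 16 lower (median −0.18). Examples are *nst-1*, which codes for the nucleolar GTPase nucleostemin and had 156, 148 and 147 CPM in DR0, against 208, 196 and 214 CPM in DR1, and *pro-2*, a gene of ribosomal RNA processing, lower by 0.62 on the log2 scale. The 26 replication-type histone genes had 13 higher and 0 lower, with a median of 0.65 that was 0.35 under total-count scaling and 0.32 with the length trend removed. Mature histone messages of this kind largely lack a poly(A) tail, the genes share near-identical copies, and the 3 named here, *his-16*, *his-13* and *his-68*, had less than 10 CPM in every DR0 and DR1 library. The call of *his-13* ended without DR1 replicate 2 (0.96) or DR0 replicate 3 (0.95), and that of *his-68* without DR1 replicate 3 (0.81) or DR0 replicate 1 (0.92).

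**Figure D3:**
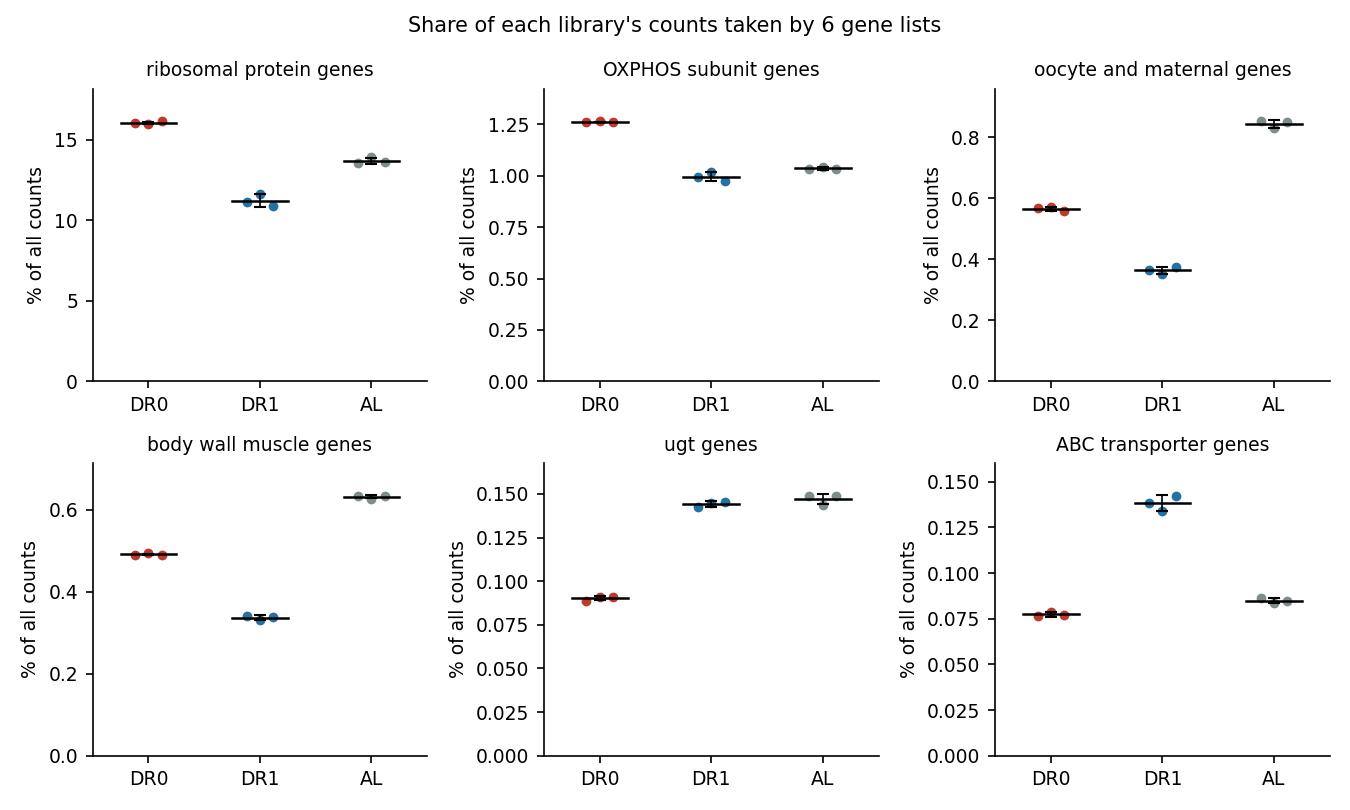
Share of each library's counts (%) taken by 6 gene lists in DR0 (no bacteria), DR1 (diluted bacteria) and AL (undiluted bacteria). Each point is a library, the line is the mean and the bar the SD of 3. The ribosomal protein genes took 16% to 16.1% in DR0 and 10.9% to 11.6% in DR1, and the *ugt* and ABC transporter genes took less in DR0 than in DR1.

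Genes that oocytes load for the embryo were higher without bacteria than on diluted bacteria, and in most cases highest with undiluted bacteria. Of 25 oocyte and maternal genes, 22 were higher and 0 lower at the adjusted p, 7 passed the fold threshold (1.44% of all genes did), and the median log2 fold change was 0.90. The eggshell proteoglycan gene *cpg-2* (chromosome III from 7102092 to 7103990) had 616, 584 and 593 CPM in DR0, against 239, 240 and 246 CPM in DR1 and 1001, 1009 and 1027 CPM in AL. DR0 lay between the other groups, with no overlap, and the rise over DR1 was 1.31 on the log2 scale (s.e. 0.04, edgeR adjusted p = 2.42e-18). *puf-5*, an RNA-binding protein gene that represses maternal messages during oocyte growth, had 379, 372 and 354 CPM in DR0, against 150, 139 and 160 CPM in DR1. *perm-2*, a gene of the eggshell permeability layer that shares exon sequence with *C44B12.6* on the other strand, rose by 1.29. In these whole-worm samples fewer cells of a type and less RNA per cell cannot be told apart. The AL mean lay above both restricted groups for 24 of the 25 genes, and for 38.1% of all genes tested. The share of counts of the 25 was 0.559% to 0.572% in DR0, against 0.353% to 0.375% in DR1 and 0.830% to 0.852% in AL. The median of the list was 0.60 under total-count scaling, with 20 higher and 3 lower, and 0.94 with the length trend removed.

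Other markers of the germ line did not share this difference. Of 29 germ cell and meiosis genes, 5 were higher and 11 lower at the adjusted p, and their median of −0.16 turned to 0.05 once the length trend was removed. The only one called was *nos-2*, a Nanos-related gene whose message oocytes also hold, with 114, 119 and 110 CPM in DR0, against 49.3, 53.0 and 55.2 CPM in DR1, and its exons overlap *him-14* on the other strand. The 44 DNA replication and cell cycle genes had 10 higher and 22 lower (median −0.16), but 13 higher and 14 lower with the length trend removed. The 2 with the smallest adjusted p were both higher by 0.49, *pcn-1*, the sliding clamp of DNA replication, and *cyb-3*, a cyclin B gene. Of 29 zygotic genes of the early embryo, 3 were higher and 8 lower, with a median of −0.06 that became 0.02 with the length trend removed. The 32 small RNA and Argonaute genes had 8 higher and 16 lower, with *deps-1*, a P granule gene, higher by 0.67 and *nrde-3*, a nuclear Argonaute gene, lower by 0.59. With the length trend removed 11 of these were higher and 8 lower.

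Genes of the body wall muscle rose in part, led by proteins of the contractile filaments. Of 33 tested, 17 were higher and 2 lower at the adjusted p (51.5% and 6.06%, against 21.2% and 17.8% of all genes tested). The fold threshold was passed by 8, and 1.44% of all genes tested were upregulated. The median was 0.61, which was 0.31 under total-count scaling (17 higher and 9 lower) and 0.71 with the length trend removed. The myosin light chain gene *mlc-3* (chromosome III from 5565025 to 5567382) had 487, 482 and 500 CPM in DR0, against 201, 222 and 194 CPM in DR1. The DR0 libraries stood near the AL libraries of 482, 484 and 473 CPM, and the rise over DR1 was 1.25 on the log2 scale (s.e. 0.05, edgeR adjusted p = 1.9e-16). *mlc-2*, a regulatory myosin light chain gene whose exons overlap *C36E6.2*, and *cpn-3*, a calponin gene, rose by 1.21 and 1.35. The long gene *unc-54*, the main myosin heavy chain of body wall muscle and chosen after its values were seen, had 423, 461 and 418 CPM in DR0, against 201, 179 and 189 CPM in DR1. The 2 members that were lower, the integrin partner gene *unc-112* and the ryanodine receptor gene *unc-68*, also chosen after their values were seen, differed by −0.46 and −0.56 on the log2 scale. *unc-68* is long and its difference was −0.04 with the length trend removed.

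Markers of other tissues had medians nearer to 0. The 25 epidermis markers had 7 higher and 7 lower (median −0.02), but 2 higher and 14 lower under total-count scaling (median −0.32) and 5 higher and 3 lower with the length trend removed (median 0.09). The 20 pharynx markers had 8 higher and 1 lower (median 0.39), but 3 and 3 under total-count scaling (median 0.10). The 27 neuron markers had 4 higher and 4 lower (median −0.04), but 2 and 9 under total-count scaling and 5 and 1 with the length trend removed (median 0.04). The 2 with the smallest adjusted p were both higher, *egl-21*, which processes neuropeptides, by 0.77 and *snb-1*, synaptobrevin, by 0.48. The lowest value in the list, −1.07, did not pass the adjusted p. The 29 intestine markers had 10 higher and 6 lower, with a median of 0.06 that was −0.23 under total-count scaling, when 9 were higher and 12 lower. *elt-2*, which codes for the GATA factor of the intestine, had 22.6, 27.4 and 24.8 CPM in DR0, against 24.8, 23.7 and 23.6 CPM in DR1, and its libraries overlapped (log2 fold change 0.05, adjusted p = 0.742 from edgeR). Among 30 genes of the *flp* neuropeptides 19 were higher and 1 lower, with a median of 0.45. *flp-3* had 17.6, 12.9 and 17.2 CPM in DR0, against 7.21, 6.74 and 6.71 CPM in DR1. The AL mean lay below both groups for 24 of the 30 genes, and for 42.2% of all genes tested. These genes are short, with a median exon length of 644.5 bases, and 7 rather than 19 were higher once the length trend was removed, when their median was 0.18. Under total-count scaling 7 were higher and 1 lower (median 0.16).

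**Figure D4:**
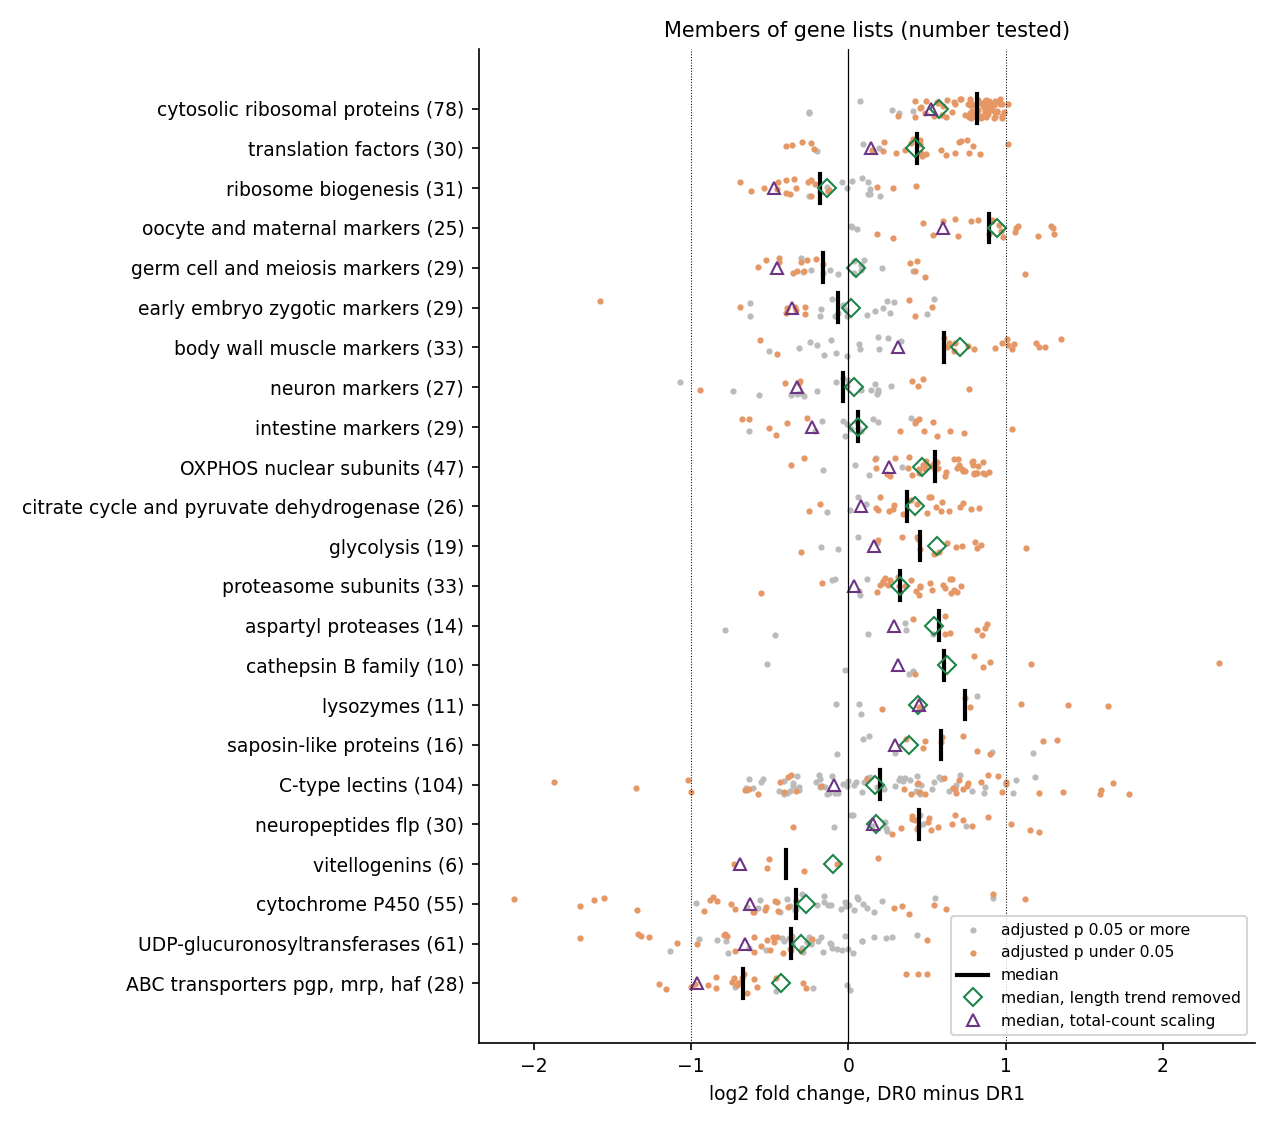
Log2 fold change, DR0 minus DR1, of each member (point) of 23 gene lists, with the number tested in brackets. Orange points passed the adjusted p and grey points did not, the black bar is the median, the green diamond the median with the length trend removed and the purple triangle the median under total-count scaling. Medians lie right of 0 under all 3 for ribosomal proteins, oocyte genes and muscle genes, and left of 0 for cytochrome P450, *ugt* and ABC transporter genes. Those of germ cell, early embryo, neuron, intestine and C-type lectin genes change sign between them.

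Genes of oxidative phosphorylation, the citrate cycle and glycolysis were mostly higher without bacteria. Of 47 nuclear genes for oxidative phosphorylation, 39 were higher and 2 lower at the adjusted p (median 0.55), including *atp-1*, an ATP synthase subunit, with 1267, 1277 and 1276 CPM in DR0, against 747, 705 and 757 CPM in DR1. *cox-4*, a subunit of cytochrome c oxidase, rose by 0.87. None of the 47 passed the fold threshold. The 12 genes of the mitochondrial genome had 11 higher and 0 lower (median 0.40). Under total-count scaling the nuclear genes had 31 higher and 3 lower (median 0.26) and the mitochondrial ones 7 and 0 (median 0.105). For the nuclear subunits the AL mean lay between DR0 and DR1 for 28 of 47, and for 19.8% of all genes tested. The 26 genes of the citrate cycle and pyruvate dehydrogenase had 20 higher and 2 lower (median 0.37, or 0.08 under total-count scaling, with 13 higher and 5 lower). Their example *mdh-2*, mitochondrial malate dehydrogenase, had 179, 201 and 196 CPM in DR0, against 111, 110 and 114 CPM in DR1.

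In glycolysis 14 of 19 genes were higher and 1 lower (median 0.45, or 0.16 under total-count scaling). *aldo-2*, fructose-bisphosphate aldolase, had 1536, 1514 and 1494 CPM in DR0, against 681, 677 and 720 CPM in DR1 and an AL mean of 584 CPM, a log2 fold change of 1.13 (s.e. 0.03, adjusted p = 6.25e-18 from edgeR). The groups did not overlap, and *F01F1.3* on the other strand shares part of its exons. In the opposite flux, the 10 genes of the glyoxylate cycle and gluconeogenesis had 8 higher and 0 lower (median 0.42), with *pck-1*, phosphoenolpyruvate carboxykinase, at 208, 204 and 206 CPM in DR0, against 110, 117 and 108 CPM in DR1. Under total-count scaling 5 of these 10 were higher and 2 lower (median 0.13), and with the length trend removed 10 were higher and 0 lower (median 0.53). Of 17 genes for trehalose and glycogen, the sugar stores of the worm, 5 were higher and 10 lower (median −0.30, or −0.10 with the length trend removed, when 6 were higher and 6 lower). *gyg-2*, a glycogenin that primes glycogen, was the only one upregulated, with 157, 165 and 153 CPM in DR0, against 76.0, 72.0 and 75.8 CPM in DR1. The only one downregulated, *tre-4*, was lower by 1.01 on the log2 scale. Its call ended without DR1 replicate 2 (−0.89) or DR0 replicate 1 (−0.91).

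Of 13 genes of propionate breakdown, 9 were higher and 0 lower at the adjusted p (median 0.30), but under total-count scaling 5 were higher and 4 lower and the median was 0.01. *alh-8*, an aldehyde dehydrogenase of the shunt that bypasses vitamin B12, had 1275, 1300 and 1303 CPM in DR0, against 596, 577 and 607 CPM in DR1, and an AL mean of 677 CPM. *hphd-1*, an earlier dehydrogenase of the same shunt, had 65, 72.4 and 67.3 CPM in DR0, against 31.8, 25 and 28.4 CPM in DR1. Both were called upregulated, with log2 fold changes of 1.12 and 1.27. Neither gene's libraries overlapped between DR0 and DR1, which held for 202 of the 206 upregulated genes.

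Fat metabolism held genes that moved in opposite directions within a family. Of 48 genes of fatty acid oxidation 18 were higher and 11 lower at the adjusted p (median 0.10), but 8 were higher and 22 lower under total-count scaling (median −0.19). The enoyl-CoA hydratase family holds both called members of this list, with *ech-7* at 230, 222 and 220 CPM in DR0, against 102, 93.7 and 98.6 CPM in DR1, and *ech-9* at 3.81, 3.87 and 3.57 CPM in DR0, against 8.31, 8.38 and 8.23 CPM in DR1. Of the 6 *lipl* lipase genes, 3 were higher and 1 lower at the adjusted p. Against the rise of *lipl-5* given above, *lipl-1* had 28, 27.3 and 34.8 CPM in DR0, against 64.3, 60.2 and 58.8 CPM in DR1, a log2 fold change of −1.02 (s.e. 0.11, adjusted p = 3.55e-08 from edgeR), which was −0.98 without DR1 replicate 1, −0.97 without DR0 replicate 1 and −0.95 without DR0 replicate 2, short of the fold threshold. Of the stearoyl-CoA desaturases that make oleic acid, *fat-7* (chromosome V from 7151353 to 7153146) had 9.69, 13.0 and 10.0 CPM in DR0, against 28.2, 29 and 32.3 CPM in DR1 and an AL mean of 83.0 CPM. Its paralogue *fat-6*, chosen after its values were seen, had 903, 896 and 889 CPM in DR0, against 508, 518 and 517 CPM in DR1. On the log2 scale *fat-7* differed by −1.45 (s.e. 0.11, edgeR adjusted p = 2.31e-10) and *fat-6* by 0.80 (s.e. 0.04, edgeR adjusted p = 5.36e-15). The palmitoyl-CoA desaturase gene *fat-5* rose by 1.04, and *fat-3*, the delta-6 desaturase of polyunsaturated fat, was lower by 0.66 on the log2 scale. In all, 11 of 23 genes of fatty acid synthesis and desaturation were higher and 5 lower (median 0.27), but 8 higher and 9 lower under total-count scaling (median −0.02), and of the lipases 1 was then higher and 3 lower.

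Of 6 vitellogenin genes, which code for yolk proteins, 1 was higher and 5 lower at the adjusted p, with a median of −0.40 that was −0.69 under total-count scaling, with all 6 lower, and −0.10 once the length trend was removed. Their summed level was nearly the same, at 54950 CPM in DR0 and 54610 CPM in DR1, while their mean share of all counts was 5.19% and 6.32%. *vit-5* and *vit-6* differed by −0.07 and −0.29 on the log2 scale. *vit-1* had 55.6, 65.3 and 52.8 CPM in DR0, against 93.8, 96.2 and 97.8 CPM in DR1, a log2 fold change of −0.73 that was −1.02 under total-count scaling. *vit-2*, the one that was higher and among the 5 largest gains in CPM, had 27804, 29402 and 29117 CPM in DR0, against 25300, 23501 and 26848 CPM in DR1 (log2 fold change 0.19, s.e. 0.03, adjusted p = 1.45e-05 from edgeR), and −0.10 under total-count scaling. *vit-3* had 56.8, 50.1 and 52.3 CPM in DR0, against 76.9, 74.3 and 77.1 CPM in DR1, while its AL mean was 4947 CPM. It is nearly identical to *vit-4*, so that reads may be divided between them.

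Genes for lysosomal proteases of the aspartyl and cathepsin B families were higher in DR0. The aspartyl protease gene *asp-6* (chromosome V from 8267511 to 8268937), among the 5 largest gains in CPM, had 10704, 10943 and 10708 CPM in DR0, against 5999, 5542 and 6222 CPM in DR1 and an AL mean of 3229 CPM. That is a log2 fold change of 0.87 (s.e. 0.03, adjusted p = 8.21e-17 from edgeR), and of 14 aspartyl protease genes 8 were higher and 0 lower (median 0.58). Of 10 cathepsin B genes 6 were higher and 0 lower (median 0.61). *cpr-1* (chromosome V from 11975551 to 11976756) had 347, 342 and 349 CPM in DR0, against 159, 145 and 160 CPM in DR1 and 22.2 to 23.9 CPM in AL. A second member of the family, *cpr-2*, (chromosome V from 16532936 to 16534100) had 8.42, 8.40 and 7.94 CPM in DR0, against 1.92, 1.28 and 1.60 CPM in DR1, a log2 fold change of 2.36 (s.e. 0.33, adjusted p = 2.71e-06). For both genes DR0 was highest, DR1 in the middle and AL lowest, with no overlap of libraries.

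The cathepsin A and prolyl carboxypeptidase-like genes were mixed, with 1 of 12 higher and 4 lower at the adjusted p. *F13D12.6*, now *ctsa-1.2*, had 40.2, 40.3 and 36.9 CPM in DR0, against 16.3, 20.8 and 17.1 CPM in DR1, and shares exon sequence with *gpb-1* on the other strand. *K10C2.1*, a carboxypeptidase gene of the same family, had 32.3, 39.0 and 32.8 CPM in DR0, against 73.0, 65.3 and 78.0 CPM in DR1. Its fall of 1.06 on the log2 scale was short of the fold threshold with the length trend removed, at −0.69, and without DR1 replicate 3, at −0.997. The legumain-like asparaginyl protease gene *T28H10.3* was among the largest losses in CPM, with 439, 427 and 450 CPM in DR0, against 644, 607 and 665 CPM in DR1.

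Genes that the study measured by qRT–PCR were read in the same libraries. For restricted worms against AL worms, the study reported *cpr-5* and *cpr-8* as induced and *ctsa-1* and *vha-6* as decreased. The fold changes given here are DR0 against DR1, a different comparison that does not test those changes. *cpr-5*, a cathepsin B gene, had 68.1, 70.6 and 76.2 CPM in DR0, against 42.8, 39.1 and 41.8 CPM in DR1, a log2 fold change of 0.80 (s.e. 0.08, adjusted p = 2.47e-08 from edgeR). *cpr-8* and *ctsa-1* overlapped between the groups, with log2 fold changes of −0.52 (adjusted p = 0.259 from edgeR) and −0.08 (adjusted p = 0.774). *vha-6*, the v-ATPase a subunit of the intestine, had 124, 130 and 129 CPM in DR0, against 87.7, 88.0 and 98.5 CPM in DR1, and an AL mean of 302 CPM. Among 11 of the proteases that the study assigned to its lysosomal response, 6 were higher and 2 lower (median 0.64). The study also names *pcp-1* in this response, which is not among the 11 and was lower by 2.11 on the log2 scale. The 22 v-ATPase genes had 14 higher and 4 lower with a median of 0.27 that was −0.03 under total-count scaling, with 7 higher and 9 lower. The AL mean lay above both restricted groups for 21 of them, and for 38.1% of all genes tested. Of the regulators named by rule, *daf-16*, *pqm-1* and *hlh-30* were higher at the adjusted p by 0.56, 0.41 and 0.27, although *hlh-30* was at −0.02 under total-count scaling. *aak-2*, *skn-1*, *nhr-49* and *pha-4* had log2 fold changes of 0.11, 0.01, −0.02 and −0.09 that did not pass the test (adjusted p = 0.12, 0.894, 0.804 and 0.509 from edgeR).

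Immune effectors and stress proteins were higher in DR0 in some families. Of 11 lysozyme genes 7 were higher and 0 lower (median 0.74, or 0.44 with the length trend removed). *lys-7*, a lysozyme of the pathogen response, had 364, 382 and 377 CPM in DR0, against 149, 139 and 139 CPM in DR1, and *lys-4* rose by 1.10. Of 16 saposin-like genes, coding for small proteins that act on membranes, 10 were higher and 0 lower (median 0.59). Under total-count scaling 7 were higher and 1 lower (median 0.30), and with the length trend removed 6 were higher and 1 lower (median 0.39). The 104 C-type lectin genes had 26 higher and 13 lower (25% and 12.5%, near the 21.2% and 17.8% of all genes tested). Their median of 0.20 became −0.09 under total-count scaling, with 20 higher and 23 lower. Among the lectins that fell, *clec-218* had 21.4, 22.9 and 21.2 CPM in DR0, against 42.3, 46.2 and 44.7 CPM in DR1. Its log2 fold change stood at the fold threshold, and was −0.997 without DR1 replicate 2 and −0.998 without DR0 replicate 3. *irg-4*, an infection response gene, had 33.3, 35.4 and 37 CPM in DR0, against 69.7, 73.3 and 76.6 CPM in DR1, and an AL mean of 373 CPM.

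In the list of stress genes linked to the FOXO factor DAF-16, 12 of 20 were higher and 0 lower (median 0.52). AL lay below both restricted groups for 17 of them, and for 42.2% of all genes tested. The small heat shock protein gene *sip-1* (chromosome III from 10506106 to 10506801) had 860, 879 and 874 CPM in DR0, against 326, 346 and 313 CPM in DR1, with AL libraries of 800, 837 and 814 CPM. Its log2 fold change was 1.41 (s.e. 0.04, adjusted p = 2.21e-18 from edgeR), so that for this gene AL lay near DR0. The catalase gene *ctl-1*, which removes hydrogen peroxide, had 37.5, 32.3 and 35.4 CPM in DR0, against 17.8, 12.6 and 20.9 CPM in DR1. It was no longer called without DR1 replicate 2, at 0.85, or without DR0 replicate 1, at 0.98. The proteasome, which degrades tagged proteins, had 26 of 33 genes higher and 2 lower (median 0.33, but 14 higher and 7 lower with a median of 0.04 under total-count scaling). Of 32 autophagy genes 13 were higher and 11 lower, but 6 and 17 under total-count scaling, with *lgg-1*, the Atg8 homologue that marks autophagosomes, higher by 0.37 and *epg-2*, which links cargo to them, lower by 0.57 on the log2 scale.

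Families that handle foreign compounds differed in direction, with *ugt*, cytochrome P450, ABC transporter and monooxygenase genes mostly lower among those that passed the test and glutathione S-transferase genes higher. Of 61 *ugt* genes, which code for UDP-glucuronosyltransferases that tag compounds with sugar, 1 was higher and 24 lower at the adjusted p, with a median of −0.37 that was −0.66 under total-count scaling and −0.30 with the length trend removed. *ugt-1* (chromosome V from 10395663 to 10397820) had 19.6, 22 and 19.5 CPM in DR0, against 52.0, 52.8 and 49.7 CPM in DR1, and the AL libraries of 24.4 to 26.2 CPM lay nearer to DR0. It fell by 1.34 on the log2 scale (s.e. 0.09, edgeR adjusted p = 1.15e-11). The *ugt* genes took 0.0888% to 0.0909% of the counts in DR0 libraries, against 0.143% to 0.146% in DR1 libraries and 0.144% to 0.149% in AL libraries.

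Of 55 cytochrome P450 genes 7 were higher and 20 lower (median −0.33). These are 12.7% and 36.4%, against 21.2% and 17.8% of all genes tested. The fold threshold was passed by 5 of the lower ones, and 1.03% of all genes tested were downregulated. *cyp-13A5* (chromosome II from 9798277 to 9800362) had 5.88, 4.53 and 4.66 CPM in DR0, against 14.5, 13.4 and 16.2 CPM in DR1. It fell by 1.55 on the log2 scale (s.e. 0.18, adjusted p = 1.38e-07 from edgeR). *cyp-35C1*, of a subfamily known to respond to foreign compounds, had 2.88, 1.11 and 2.78 CPM in DR0, against 4.93, 6.74 and 5.64 CPM in DR1, while its AL mean was 43.2 CPM.

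Of 28 ABC transporter genes of the *pgp*, *mrp* and *haf* families, which pump compounds across membranes, 3 were higher and 20 lower (median −0.67). *pgp-5* had 44.2, 45.9 and 41.3 CPM in DR0, against 85.9, 88.1 and 89.2 CPM in DR1, and an AL mean of 30.4 CPM. Its log2 fold change passed the threshold narrowly, and was −0.99 without DR1 replicate 3 and −0.96 without DR0 replicate 3. *mrp-5*, a heme exporter gene, was lower by 0.74 on the log2 scale. These genes are long, with a median exon length of 4042 bases. With the length trend removed 13 were lower and 5 higher and the median was −0.43, and none of the 3 that had passed the fold threshold still did. The flavin-containing monooxygenase genes had 3 of 5 lower and 0 higher, with *fmo-2*, linked to longevity under restriction, at 86.6, 85.4 and 79.5 CPM in DR0, against 160, 139 and 159 CPM in DR1 and an AL mean of 1.99 CPM.

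Of 41 glutathione S-transferase genes, whose products join glutathione to reactive compounds, 18 were higher and 0 lower at the adjusted p (median 0.35), with 9 higher and 1 lower under total-count scaling (median 0.05) and 11 higher and 1 lower with the length trend removed (median 0.15). The 2 called members were *gsto-3*, with 17.8, 19.9 and 18.2 CPM in DR0, against 7.57, 9.21 and 7.32 CPM in DR1, and *gst-27*, with 9.22, 12.9 and 11.7 CPM in DR0, against 4.93, 5.38 and 5.26 CPM in DR1. Of 30 short-chain dehydrogenase genes 10 were higher and 2 lower (median 0.12), but 5 were higher and 11 lower under total-count scaling (median −0.18).

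Fold changes went with transcript length. The median log2 fold change was 0.31 over 1080 genes with a summed exon length of 500 bases or less, 0.20 from 501 to 1000 bases, −0.02 from 1001 to 2000, −0.19 from 2001 to 4000 and −0.35 over 736 genes above 4000 bases. Among genes at 10 CPM or more the 2 ends were 0.38 and −0.35. Upregulated genes had a median exon length of 931.5 bases, downregulated genes of 1576 bases and all genes tested of 1349 bases. With a smooth trend on length taken out of the fold changes, 148 genes were upregulated, 124 of them among the 206, and 143 were downregulated, 109 of them among the 147. Of the called genes named here, *rla-0*, *eef-1B.1*, *fat-5*, *gyg-2*, *tre-4*, *dod-6*, *lys-4*, *mlc-2*, *his-13*, *his-68*, *ech-7*, *gst-27*, *ttr-16*, *pgp-5*, *K10C2.1* and *Y16B4A.2* were then short of the fold threshold. The part of RNA quality or library preparation in this trend was not tested.

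**Figure D5:**
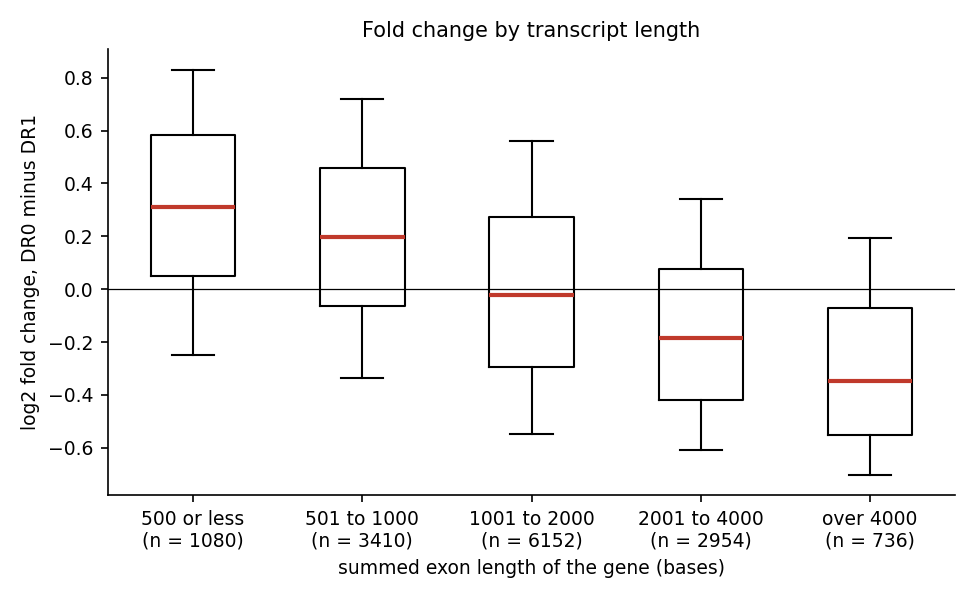
Log2 fold change, DR0 minus DR1, of 14332 genes in 5 classes of summed exon length (bases). Red lines are medians, boxes the middle 50% of genes and whiskers the 10th to 90th percentile. The medians step down from 0.31 in the shortest class to −0.35 in the longest.

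Of the 206 upregulated genes, AL lay above both restricted groups for 78, between them for 64 and below both for 64. Of the 147 downregulated genes the same counts were 53, 58 and 36. AL lay above both for 37.9% of the upregulated and 36.1% of the downregulated genes, against 38.1% of all genes tested. It lay between them for 31.1% and 39.5%, against 19.8%, and below both for 31.1% and 24.5%, against 42.2%. Called genes were selected for a wide gap between DR0 and DR1, so AL falls between them more often by construction. The AL mean was nearer to DR0 than to DR1 for 115 upregulated genes (55.8%) and 66 downregulated genes (44.9%), and for 49.6% of all genes tested. Upregulated genes with AL above both include *cpg-2* and *clec-50*. Those with AL below both include *cpr-1*, *ilys-2* and *dod-6*, the last with 486, 517 and 484 CPM in DR0, against 232 CPM in each DR1 library and an AL mean of 58.2 CPM. For *aldo-2* and *alh-8* AL lay near DR1, and for *mlc-3* and *sip-1* near DR0.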

How the data were processed

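Gene expression was measured by RNA-seq of poly(A)-enriched RNA from whole worms, in 3 libraries each of DR0, DR1 and AL. The deposited file is a table of raw counts, which the authors made for all 9 libraries by aligning reads to WBcel235 with STAR and counting them over exons with htseq-count, ignoring strand. It lists 46926 identifiers, 109 of them with no symbol, and 25161 were counted at least once.

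For the analysis edgeR 4.0.16 was run in R 4.3.3. After filterByExpr over the 3 conditions and TMM scaling, glmQLFit fitted a mean for each condition to all 9 libraries, whose shared estimate of the spread (common biological coefficient of variation 6.59%) served the test of DR0 against DR1 with glmQLFTest. Thresholds were an adjusted p of 0.05 and a log2 fold change of 1, and p values were adjusted over 14332 genes. Reads of near-identical genes, and of genes that overlap on opposite strands, cannot be told apart. Positions, exon lengths and current names are from Ensembl release 115. The test was tested on simulated data.

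The genes and the 77 lists, and the rule that names genes, were chosen with earlier results of these data known. The rule takes the 12 largest rises and 12 largest falls among called genes at 10 CPM or more whose libraries do not overlap, the 5 largest gains and losses in CPM, up to 3 rises and 3 falls per list at 5 CPM or more or the 2 smallest adjusted p values where none was called, the genes measured by qRT–PCR in the study, and 7 regulators. It gave 175 genes. *asp-10* was not found under that symbol. Promoter sequences were not used here. Alternatives were other scalings, DESeq2 1.42.0, limma-voom of limma 3.58.1, filters on low counts, the replicate number as a block, a fit of DR0 and DR1 only, each library left out, other call thresholds and, added after seeing the data, removal of a trend of fold changes on exon length. Same-numbered DR0 and DR1 libraries did not deviate together.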

Additional observations from a re-analysis of the deposited data

How the results depend on the processing

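The counts of 206 upregulated and 147 downregulated genes changed most with the scaling and the call rule. They were 57 and 604 with total-count scaling, 123 and 66 with a mean CPM of at least 5, 3035 and 2557 with the adjusted p alone, and 45 and 7 when edgeR tested against a fold change of 2. They stayed within 1.5 times under RLE scaling (204 and 153), upper quartile scaling (210 and 144), DESeq2 (178 and 115), limma-voom (208 and 149), no filter (209 and 178), a mean CPM of at least 1 (198 and 150), a fit of DR0 and DR1 only (208 and 162) and the length trend removed (148 and 143). Leaving out each library gave 193 to 252 upregulated and 130 to 173 downregulated genes. With the replicate number as a block the counts were 200 and 141, of which 197 and 139 were shared. Same-numbered DR0 and DR1 libraries had correlations of −0.0116, −0.0379 and 0.00459 of their deviations over 9991 genes. No shared deviation was seen, but these values cannot tell whether same-numbered libraries share a culture or batch. The share of genes with AL nearer to DR0 ranged from 49% to 71.1% for upregulated and from 36.4% to 62.4% for downregulated genes over all alternatives. Of 85 named genes that were called, 37 kept the call in every alternative. Of the 56 upregulated, 33 lost it with total-count scaling and 19 with the length trend removed, and of the 29 downregulated 0 lost it with total-count scaling and 7 with the length trend removed. Total-count scaling moved the median log2 fold change of all genes from 0.01 to −0.29. Downregulated genes could therefore hardly lose the call under it, so the 0 is no measure of their stability. Leaving out a library ended the call of 23. Signs turned for *hlh-30* (−0.0199) and *vit-2* (−0.10) with total-count scaling, and for *vit-5* (0.22) and *vit-6* (0.017) with the length trend removed. The causes were not tested beyond what each setting changes by construction. Genes below a few CPM rest on few counts, and counting error limits their fold changes.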

Other observations

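The families in this paragraph and the next were chosen after their values were seen, and the values are given as a description. Over all genes tested 1.44% were upregulated, and 21.2% were higher and 17.8% lower at the adjusted p. Of 17 *nspc* genes, short genes with near-identical copies, 8 were upregulated and 13 were higher at the adjusted p, with a median log2 fold change of 1.10 (DR0 minus DR1) and a median exon length of 382 bases. Of 9 *puf* genes, which code for RNA-binding proteins of the Pumilio family that act in the germ line, 5 were upregulated, 6 were higher and 3 were lower at the adjusted p. *puf-6* had 66.1, 76.7 and 64.8 CPM in DR0, against 34.8, 31 and 33.1 CPM in DR1. Of 48 *ttr* genes, related to transthyretin, 19 were higher and 0 lower (median 0.29), but 11 higher and 9 lower under total-count scaling (median −0.01) and 13 higher and 7 lower with the length trend removed (median 0.01). The largest rise among those at 5 CPM or more, *ttr-16*, had 155, 156 and 157 CPM in DR0, against 68.0, 67.7 and 59.8 CPM in DR1.

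Of 294 F-box A, B and C genes, coding for adaptors that select proteins for degradation, 6 were higher and 55 lower at the adjusted p (median −0.20), where 21.2% and 17.8% of all genes tested were, and 55 of 294 is 18.7%. The AL mean lay below both restricted groups for 175 of them, and for 42.2% of all genes tested. *fbxa-140* had 2.19, 2.87 and 2.08 CPM in DR0, against 6.11, 6.56 and 7.09 CPM in DR1.

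Called genes had a neighbour called in the same direction more often than genes tested in general. An adjacent tested gene was called in the same direction for 24 of 206 upregulated genes (11.7%) and 15 of 147 downregulated genes (10.2%), while 2.82% and 2.03% of all tested genes had such a neighbour. Chromosome V held 27.2% of the upregulated and 28.6% of the downregulated genes, and 19.6% of all genes tested. Near-identical neighbouring copies and genes that share exon sequence were not taken out of these counts. An exon overlapped another tested gene in 37 upregulated and 20 downregulated genes, but the share over all genes tested was not counted.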
